A study of Mus musculus with 6 samples.

Results

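The SLC25 carriers are the nuclear-encoded proteins that move metabolites, nucleotides, cofactors and metals across the inner mitochondrial membrane. They were taken as the rows of the deposited table whose symbol is Slc25a followed by a digit, leaving out *Slc25a13*, *Slc25a15* and *Slc25a20*, which gave 37 rows of 12792, of which 36 are used here. *Slc25a34* had no values in any library, so 35 carriers are described among 12578 genes tested. Polyadenylated RNA had been sequenced from mouse liver, with 3 libraries labelled AKR1D1KO (KO) and 3 labelled wild type (WT). All of the mice bore established tumours that had been started from the mouse hepatoma line Hepa 1-6. The labels used here give neither the age nor the sex of the animals, nor the design of the knockout allele, nor whether tumour was part of the tissue taken. They do not say that libraries came from separate animals, so the p-values measure the spread between these libraries, which may be technical.

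Most SLC25 carriers sit in the inner mitochondrial membrane as single polypeptides built from a repeated pair of membrane-spanning helices, and they alternate between a cytosolic and a matrix-facing state to exchange one solute for another. In hepatocytes they link the matrix to the cytosol for ATP export, citrate export to lipid synthesis, the malate-aspartate shuttle, the urea cycle and gluconeogenesis, haem and iron-sulphur cluster synthesis, and the supply of coenzyme A, folate and S-adenosylmethionine to mitochondrial enzymes. A few members work elsewhere, such as *Slc25a17* in peroxisomes and *Slc25a46* in the outer mitochondrial membrane. Each value in the table reads as a gene's expression in 1 library divided by that gene's mean. The mean appears to run over 7 libraries, and 1 of these is not analysed here. A value of 1 is therefore the gene's average, and levels cannot be compared between carriers.

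Several measurements bear on all the comparisons. The targeted gene *Akr1d1* had 1.22, 1.21 and 1.35 in KO libraries, against 0.826, 0.697 and 0.881 in WT libraries (limma adjusted p = 0.17). It was higher in every library labelled KO, which goes against the label, and every direction given here is between libraries as labelled. Total reads are unknown, since the table holds no counts. All 9 hepatocyte markers with a usable row had values above 0, and 3 of them lay lower in every KO library than in any WT library. The mean ratio over these 9 was 0.936 to 0.981 in KO libraries and 1.01 to 1.04 in WT libraries. For 10 macrophage markers it was 1.04 to 1.29 in KO libraries and 0.789 to 0.953 in WT libraries, with 5 markers higher in every KO library. For 7 T cell markers it was 0.92 to 1.51 in KO libraries and 0.77 to 0.842 in WT libraries, with 3 markers higher in every KO library. The mean ratio of 6 ductular markers was 0.877 to 1.49 in KO libraries and 0.699 to 0.872 in WT libraries, with 1 marker higher in every KO library. For 8 proliferation markers it was 0.905 to 1.31 in KO libraries and 0.729 to 0.975 in WT libraries, with 2 markers higher in every KO library. For 4 B cell markers it was 0.937 to 1.38 in KO libraries and 0.704 to 0.904 in WT libraries. Among these, the plasma cell gene *Jchain* had 2.13, 2.53 and 0.955 in KO libraries, against 0.191, 0.214 and 0.362 in WT libraries (limma adjusted p = 0.143). The muscle gene *Tnni2* had 2.36, 2.38 and 2.26 in KO libraries and was listed at 0 in all WT libraries (limma adjusted p = 1.45e-05). *Mylpf*, the other skeletal muscle marker with a usable row, went the other way. It had 0.957, 0.797 and 0.294 in KO libraries, against 1.2, 1.55 and 1.14 in WT libraries (limma adjusted p = 0.415). Of 6 adipocyte markers only *Cfd* had a usable row. It had 1.11, 0.845 and 2.77 in KO libraries, against 0.45, 0.726 and 0.202 in WT libraries (limma adjusted p = 0.358). Of 6 heart muscle markers, 2 had a usable row. Their mean ratios overlapped, at 0.726 to 1.95 in KO libraries and 0.429 to 1.18 in WT libraries. The mean ratios of 8 stellate markers overlapped between groups, at 0.977 to 1.12 in KO libraries and 0.888 to 1.05 in WT libraries. Those of 7 endothelial markers also overlapped, at 0.925 to 1.07 in KO libraries and 0.88 to 1.04 in WT libraries. Of 6 hepatoma markers, only 2 had a usable row, *Scd2* and *Gpc3*. Their mean ratios overlapped too, at 0.897 to 1.32 in KO libraries and 0.751 to 1.05 in WT libraries. In a bulk sample fewer cells of a type and less RNA per cell cannot be told apart, and the part of these cell types in the carrier values was not tested.

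Across the family, KO and WT libraries were close. None of the 35 carriers passed a Benjamini-Hochberg adjusted p of 0.05 in limma, where 0.0159% of all 12578 genes did, and the smallest adjusted p of a carrier was 0.286. At an unadjusted p under 0.05 the count was 2 of 35 (5.71%), against 12.0% of all genes. *Slc25a17* was the lower one in the libraries labelled KO, a direction that 5.53% of all genes took, and *Slc25a47* the higher one, in a direction that 6.50% took. The KO and WT values did not overlap in 4 of 35 carriers. In 3 of these 4 the KO libraries lay below, which held for 10.1% of all genes, and in 1 above, which held for 8.86%. The median log2 change over the carriers was -0.01, from -0.45 to 0.92, with 17 positive and 18 negative, and 49% of all genes were positive. Each of these shares of the family was below that of the whole table or near it. Exons of another annotated gene overlap 10 of the 35 carriers on the opposite strand, which leaves their values uncertain if strand was not used in counting. Without WT replicate 3 the number of carriers higher in KO at an unadjusted p under 0.05 was 6. It was 0 without KO replicate 2, and the number lower was 2 without KO replicate 1, *Slc25a17* and *Slc25a35*.

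**Figure D1:**
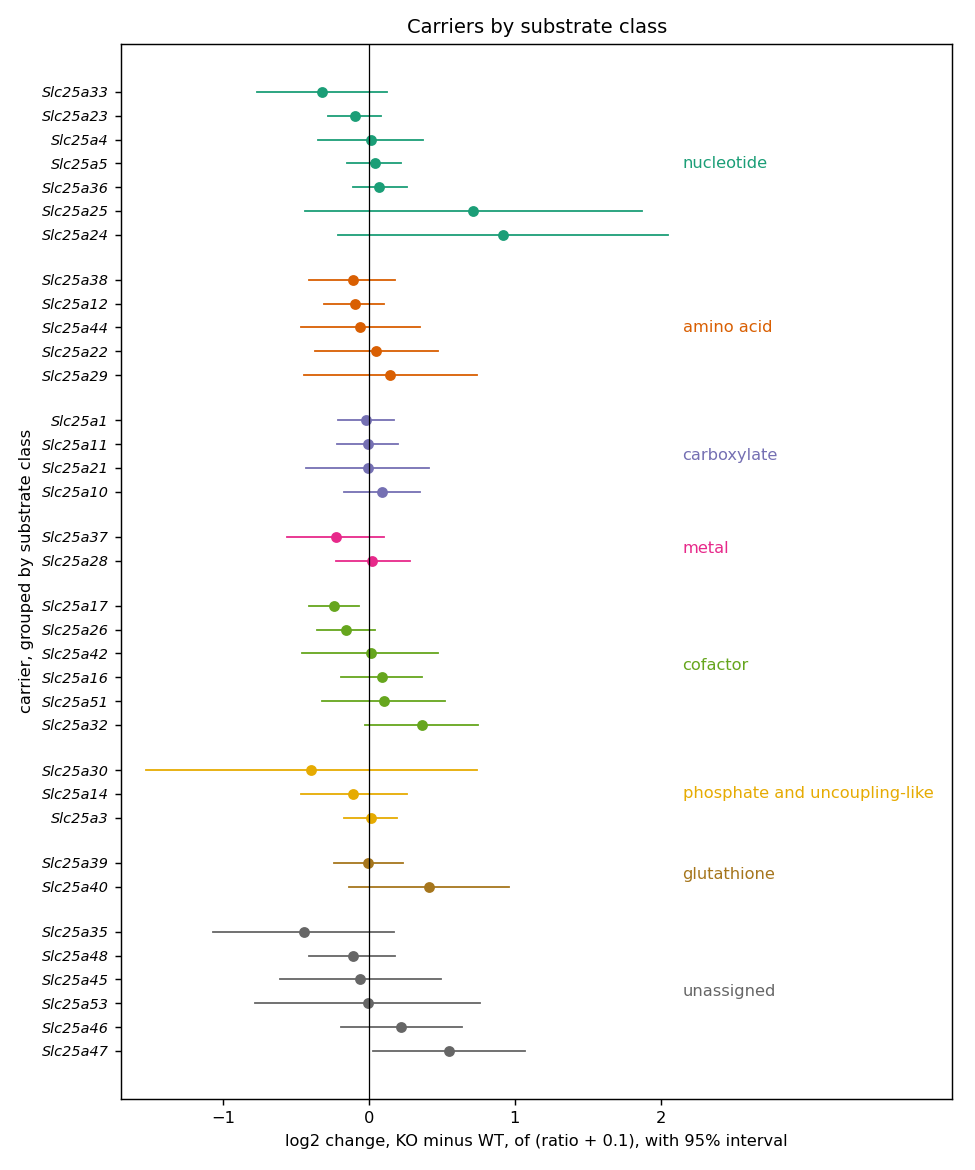
Log2 change of each of the 35 carriers, KO minus WT, on the log2(ratio + 0.1) scale, with bars for the 95% interval from limma and colours for substrate classes. The intervals of *Slc25a17* and *Slc25a47* leave out 0 before adjustment, and the widest belong to *Slc25a24*, *Slc25a25* and *Slc25a30*.

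The upstream sequences of *Slc25a17* and *Slc25a47* are shown because these are the carriers with the smallest p in each direction for which a promoter entry was at hand. They are taken from RefSeq (GRCm38.p6), 5′ to 3′ on the gene's strand, and cover bases -250 to -51 from the RefSeq start. The window of *Slc25a17* is chr15:81360816-81361015 on the minus strand and that of *Slc25a47* is chr12:108850879-108851078 on the plus strand. No GENCODE coding transcript opens at the start used for *Slc25a17*, base 81360765. The nearest coding start is base 81360812, so the start used lies 47 bases inside the gene's GENCODE span. The start used for *Slc25a47*, base 108851129, is that of a coding transcript and lies 15083 bases inside the gene's GENCODE span, which opens with non-coding transcripts. Capitals mark matches, on either strand, to the motifs searched.
Slc25a17: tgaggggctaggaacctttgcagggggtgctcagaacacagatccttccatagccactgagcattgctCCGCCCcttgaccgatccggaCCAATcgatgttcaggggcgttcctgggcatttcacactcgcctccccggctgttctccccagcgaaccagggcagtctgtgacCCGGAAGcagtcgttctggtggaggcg
Slc25a47: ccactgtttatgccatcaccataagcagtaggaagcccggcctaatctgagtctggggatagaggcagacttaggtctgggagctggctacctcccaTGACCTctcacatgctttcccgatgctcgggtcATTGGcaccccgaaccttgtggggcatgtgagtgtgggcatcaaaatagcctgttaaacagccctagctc
The *Slc25a17* window holds a GC box (GGGCGG, on the minus strand), a CCAAT box (CCAAT) and an ETS core (CCGGAAG). The *Slc25a47* window holds a CCAAT box on the minus strand and a nuclear receptor half-site (AGGTCA, on the minus strand), and neither window holds the NRF1 half-site (TGCGCA), the E-box (CACGTG) or TATAAA.

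The same windows could be read for 28 of the 35 carriers. A GC box was present in 46.4% of them, against 43.2% of the 9533 promoters of tested genes and 24.5% of all 27025 promoters. CCAAT was found in 46.4% of carrier windows, 29.9% of those of tested genes and 28.9% of all. The ETS core stood in 10.7%, 7.34% and 4.01%, the NRF1 half-site in 10.7%, 8.07% and 4.52%, and the E-box in 7.14%, 6.06% and 4.35%. The half-site was in 7.14% of carrier windows, 9.36% of those of tested genes and 11.2% of all, while TATAAA was in 0 of 28, 4.58% and 9.48%. These matches describe letters in the windows and not binding.

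Of the 6 cofactor carriers, 2 lay lower in every KO library than in any WT library, which held for 10.1% of all genes. *Slc25a17* (chromosome 15, 81318911 to 81360812, minus strand, GENCODE M21 on mm10) encodes the peroxisomal carrier for coenzyme A, FAD and NAD. Its values were 0.906, 0.934 and 0.928 in KO libraries, against 1.13, 1.08 and 1.12 in WT libraries. All 3 KO libraries lay below all 3 WT libraries, and each group was tight: the within-group SD of 0.0257 on the log2 scale was the smallest of the 35 carriers. It averaged 0.923 ± 0.0146 in KO libraries and 1.11 ± 0.025 in WT libraries (SD, n = 3 each), a ratio of 0.83. The log2 change was -0.24 (SE 0.07, 95% interval -0.41 to -0.07) and the limma adjusted p was 0.286. A two-sided exact permutation test gave 0.1, which is the smallest p that 3 against 3 libraries can give.

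*Slc25a26*, the S-adenosylmethionine carrier, had 0.932, 0.864 and 0.998 in KO libraries, against 1.04, 1.04 and 1.07 in WT libraries. These groups were also apart, with a ratio of 0.886 (log2 change -0.16, limma adjusted p = 0.501). Exons of *Lrig1* overlap it on the opposite strand. *Slc25a32*, which carries folate and FAD, stood on the other side with 0.964, 1.15 and 1.30 in KO libraries, against 0.809, 0.748 and 1.05 in WT libraries. WT replicate 3 lay within the KO range, and the log2 change was 0.36 (SE 0.16, limma adjusted p = 0.454). It was 0.27 both without WT replicate 2 and without KO replicate 3, and 0.49 without WT replicate 3.

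The remaining cofactor carriers were *Slc25a16* and *Slc25a42*, both linked to coenzyme A, and *Slc25a51*, the NAD carrier. Their log2 changes were 0.09, 0.01 and 0.10, with limma adjusted p of 0.791, 0.993 and 0.848, and their groups overlapped. The median of the 6 cofactor carriers was 0.05. Replicate 3 had the highest value of its group in both KO and WT libraries for 4 of these 6, *Slc25a16*, *Slc25a26*, *Slc25a32* and *Slc25a51*, a pattern named after the values were seen. It was present in 7 of all 35 carriers, the others being *Slc25a14*, *Slc25a40* and *Slc25a46*, and in 13.8% of all genes tested.

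**Figure D2:**
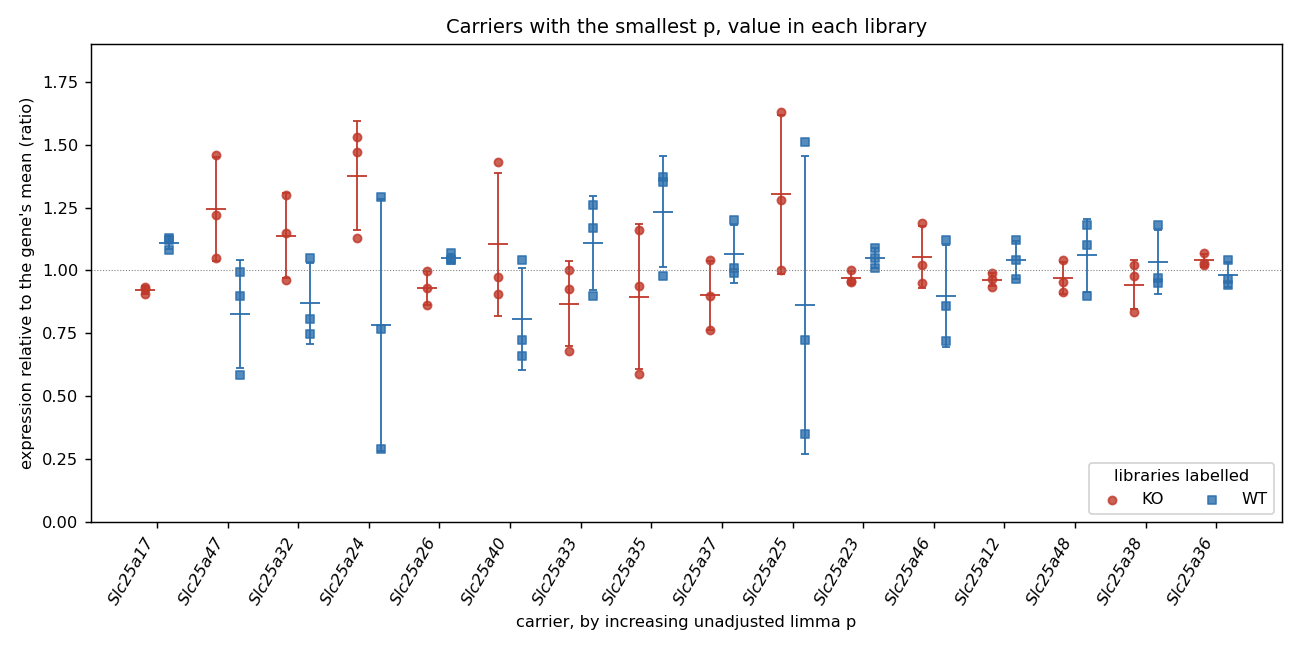
Values of the 16 carriers with the smallest unadjusted p, as the ratio to each gene's mean, with circles for KO libraries, squares for WT libraries, and the mean ± SD of 3 libraries. The groups are apart for *Slc25a17*, *Slc25a47*, *Slc25a26* and *Slc25a23*, and WT libraries spread most for *Slc25a24* and *Slc25a25*.

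Enzymes that make or use these cofactors were set beside the carriers. Of 26 tested, 0 passed the adjusted threshold, 4 had an unadjusted p under 0.05 as higher in KO and 0 as lower. Of all genes, 6.50% were higher and 5.53% lower by this measure, and these shares are the background of each companion list. The median log2 change was 0.10. *Mthfd2l*, a mitochondrial folate enzyme, had 0.977, 1.13 and 1.11 in KO libraries, against 0.807, 0.749 and 0.909 in WT libraries (adjusted p = 0.291). The NAD kinase *Nadk* had a ratio of 1.2 and the folate enzyme *Mthfd2* of 1.31, both with the KO libraries above the WT libraries throughout (adjusted p = 0.349 and 0.368). Other folate enzymes of the list, named after their values were seen, had lower means in KO libraries with overlapping groups: *Mthfd1* had a ratio of 0.924 and *Mthfd1l* one of 0.792 (limma adjusted p = 0.665 and 0.765).

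Nucleotide carriers held 2 of the 3 genes with the widest spread between libraries. *Slc25a24* and *Slc25a25* encode calcium-regulated carriers that exchange ATP-Mg for phosphate and so set the adenine nucleotide content of the matrix. *Slc25a24* (chromosome 3, 109123149 to 109168457, plus strand) had 1.13, 1.53 and 1.47 in KO libraries, against 1.29, 0.29 and 0.768 in WT libraries. The groups overlapped through WT replicate 1, and WT replicate 2 was the lowest of all 210 carrier values. The ratio of means was 1.76 and the log2 change 0.92 (SE 0.46, limma adjusted p = 0.497), but 0.42 without WT replicate 2.

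*Slc25a25* (chromosome 2, 32414487 to 32451445, minus strand) had 1.63, 1.28 and 1.00 in KO libraries, against 0.724, 0.35 and 1.51 in WT libraries. WT replicate 2 was again lowest, while WT replicate 3 lay among the KO libraries. The log2 change of 0.71 (SE 0.47, limma adjusted p = 0.602) was 0.26 without WT replicate 2 and 1.18 without WT replicate 3. Exons of *Naif1* overlap this gene on the opposite strand. *Slc25a23*, another carrier of this kind, had 0.955, 0.959 and 1.00 in KO libraries, against 1.05, 1.09 and 1.01 in WT libraries. Its groups were apart by little, with a ratio of 0.925 (log2 change -0.10, limma adjusted p = 0.636).

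The ADP/ATP carriers *Slc25a4* and *Slc25a5*, which export the ATP made by oxidative phosphorylation, had log2 changes of 0.01 and 0.04. *Slc25a5* had 1.01, 1.05 and 1.04 in KO libraries, against 1.03, 1.04 and 0.944 in WT libraries. Its 95% interval ran from -0.15 to 0.22, and that of *Slc25a4* from -0.35 to 0.37. Both intervals rest only on the spread between these libraries. *Slc25a5* has 1 named pseudogene in GENCODE, and reads shared with such copies make its values uncertain. The pyrimidine nucleotide carriers differed in direction: *Slc25a33* had 1.00, 0.68 and 0.925 in KO libraries, against 0.899, 1.17 and 1.26 in WT libraries (log2 change -0.32, or -0.18 without KO replicate 2, limma adjusted p = 0.537), while *Slc25a36* had 1.02, 1.07 and 1.03 in KO libraries, against 0.967, 0.943 and 1.04 in WT libraries (log2 change 0.07, limma adjusted p = 0.752). The groups overlapped for both. Over the 7 nucleotide carriers the median log2 change was 0.04, with 5 positive and 2 negative.

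The groups were apart for none of the amino acid carriers. The median log2 change of the 5 tested was -0.06 and their range -0.11 to 0.14, with all 5 overlapping between groups. This median was -0.03 without WT replicate 1 and -0.13 without WT replicate 2. *Slc25a12*, an aspartate-glutamate carrier of the malate-aspartate shuttle, had 0.935, 0.99 and 0.967 in KO libraries, against 1.12, 0.967 and 1.04 in WT libraries (limma adjusted p = 0.673). KO replicate 2 lay above the lowest WT library. *Slc25a38*, the glycine carrier that feeds haem synthesis, had 0.976, 0.835 and 1.02 in KO libraries, against 1.18, 0.97 and 0.949 in WT libraries (limma adjusted p = 0.748). The branched-chain amino acid carrier *Slc25a44*, the glutamate carrier *Slc25a22* and the basic amino acid carrier *Slc25a29* had adjusted p of 0.91, 0.928 and 0.848.

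*Slc25a29* lies next to *Slc25a47*: their annotated spans on chromosome 12 are 163 bases apart, and the genes are read in opposite directions. *Slc25a29* had 1.09, 1.12 and 0.943 in KO libraries, against 0.686, 1.39 and 0.868 in WT libraries. The WT libraries spanned a wider range than the KO libraries, and the lowest value of the gene was in WT replicate 1, as for *Slc25a47*.

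The companion enzymes of amino acid transport also stayed short of the threshold. Of 6 malate-aspartate and glycerol phosphate shuttle enzymes all had a positive log2 change, with a median of 0.09, 0 at an unadjusted p under 0.05 and 1 with the groups apart, *Mdh1* (ratio 1.06, limma adjusted p = 0.741). Of 15 enzymes of glutamate, glycine and branched-chain amino acids, 1 had an unadjusted p under 0.05. This was *Oat*, ornithine aminotransferase, with 1.15, 1.18 and 1.35 in KO libraries, against 0.719, 1.03 and 0.73 in WT libraries (limma adjusted p = 0.286). The glutamine synthetase gene *Glul* had a ratio of 1.23 with the groups apart (limma adjusted p = 0.445).

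Carboxylate carriers had the narrowest range of log2 changes of the 8 classes. *Slc25a1* exports citrate, the source of cytosolic acetyl-CoA for fatty acid and sterol synthesis. Its values were 1.08, 1.01 and 0.975 in KO libraries, against 1.07, 1.06 and 0.983 in WT libraries. The groups overlapped almost fully, with a log2 change of -0.02 and a 95% interval of -0.21 to 0.17.

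*Slc25a10*, the dicarboxylate carrier, had 1.01, 1.03 and 1.10 in KO libraries, against 0.939, 1.12 and 0.882 in WT libraries. The KO values lay inside the WT range. *Slc25a11*, the 2-oxoglutarate-malate carrier, had 0.996, 1.04 and 0.984 in KO libraries, against 1.08, 1.03 and 0.927 in WT libraries. *Slc25a21*, which carries 2-oxoadipate and other oxodicarboxylates, had 1.03, 0.97 and 1.05 in KO libraries, against 0.899, 1.36 and 0.883 in WT libraries. WT replicate 2 set the upper end for *Slc25a21*, and the log2 change of -0.01 was 0.18 without it. The log2 changes of the 4 ran from -0.02 to 0.09, with adjusted p from 0.77 to 0.988.

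The list of citrate export and cytosolic acetyl-CoA enzymes had a higher median log2 change than that of *Slc25a1*. The 8 genes of this list had a median log2 change of 0.41, from -0.03 to 0.73, with 2 at an unadjusted p under 0.05, both higher in KO, and 0 past the adjusted threshold. *Acss2*, which makes acetyl-CoA from acetate, had 1.33, 1.54 and 1.28 in KO libraries, against 1.07, 0.701 and 0.655 in WT libraries (limma adjusted p = 0.255). The ATP citrate lyase gene *Acly* had 1.16, 1.25 and 1.19 in KO libraries, against 1.25, 0.692 and 0.819 in WT libraries, so that the groups overlapped through WT replicate 1. *Acacb*, an acetyl-CoA carboxylase, had a ratio of 1.38 with the groups apart (limma adjusted p = 0.365). *Acly* was named after its values were seen, as the direct user of exported citrate. *Idh1* (log2 change 0.09) and *Aco1* (-0.03), also named after their values were seen, had overlapping groups. The difference between these enzymes and *Slc25a1* was not tested.

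In the citric acid cycle list, 21 genes were tested and the median log2 change was 0.03. Of these, 2 were higher and 1 lower in KO at an unadjusted p under 0.05. *Pck2*, the mitochondrial PEP carboxykinase, had 0.841, 0.933 and 0.513 in KO libraries, against 1.24, 1.14 and 1.37 in WT libraries (limma adjusted p = 0.318). The succinyl-CoA ligase gene *Sucla2* and the citrate synthase gene *Cs* each had a ratio of 1.18 with the groups apart (limma adjusted p = 0.366 and 0.403).

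The metal carriers are the mitoferrins, which bring iron into the matrix for haem and iron-sulphur clusters. *Slc25a37*, mitoferrin 1, best known from red cell precursors, had 0.765, 0.898 and 1.04 in KO libraries, against 1.2, 0.991 and 1.01 in WT libraries. KO replicate 3 lay within the WT range, and the log2 change was -0.23 (SE 0.13, limma adjusted p = 0.557), but -0.13 without KO replicate 1 and -0.15 without WT replicate 1. *Slc25a28*, mitoferrin 2, had 0.995, 0.968 and 1.06 in KO libraries, against 0.982, 1.11 and 0.885 in WT libraries. Its KO values lay inside the WT range (log2 change 0.02, 95% interval -0.23 to 0.28). Exons of 2 genes, *Gm27223* and *Gm31748*, overlap *Slc25a37* on the opposite strand.

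Of 12 erythroid markers, 2 had a usable row, *Alas2* and *Klf1*. *Alas2*, the red cell form of the enzyme that starts haem synthesis, had 1.15, 1.08 and 1.18 in KO libraries, against 0.941, 0.991 and 0.911 in WT libraries (limma adjusted p = 0.326). It was thus higher in every KO library while *Slc25a37* had a lower mean there, and the part of red cell precursors in these values was not tested. Among 22 haem and iron-sulphur enzymes the median log2 change was 0.02, with 2 higher and 0 lower in KO at an unadjusted p under 0.05. These were the haem oxygenase gene *Hmox1*, at a ratio of 1.2, and the haem synthesis gene *Uros*, at 1.26 (limma adjusted p = 0.325 and 0.362), while *Urod*, of the next step of that synthesis, had a ratio of 0.824 with the groups apart (limma adjusted p = 0.417).

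The glutathione carriers *Slc25a39* and *Slc25a40* supply the matrix with its main thiol antioxidant. *Slc25a40* had 0.907, 0.974 and 1.43 in KO libraries, against 0.66, 0.724 and 1.04 in WT libraries. In each group replicate 3 was the highest, and WT replicate 3 lay above KO replicates 1 and 2. The log2 change was 0.41 (SE 0.22, limma adjusted p = 0.531), and 0.22 without KO replicate 3. *Slc25a39* had 1.10, 0.984 and 0.972 in KO libraries, against 1.01, 1.12 and 0.943 in WT libraries, a log2 change of -0.01.

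Genes of glutathione synthesis and use mostly had lower means in KO libraries. Of 8 genes in the glutathione list, 6 had a negative log2 change and the median was -0.15, with 1 lower and 1 higher in KO at an unadjusted p under 0.05. *Gss*, glutathione synthetase, had 0.872, 0.834 and 0.721 in KO libraries, against 0.983, 1.21 and 1.17 in WT libraries (limma adjusted p = 0.268). *Gclc*, the catalytic subunit of the rate-limiting enzyme, had a ratio of 0.791 with the groups apart, and *Gpx4*, a lipid peroxidase, one of 1.24 (limma adjusted p = 0.422 and 0.358).

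*Slc25a3*, the phosphate carrier that feeds ATP synthase, was among the steadiest genes of the family. It had 1.02, 1.01 and 1.01 in KO libraries, against 0.986, 1.06 and 0.977 in WT libraries (95% interval of the log2 change -0.17 to 0.19). The WT values spanned the KO values. *Slc25a30*, a carrier related to the uncoupling proteins, had 0.787, 0.479 and 1.61 in KO libraries, against 0.711, 1.53 and 1.41 in WT libraries. Each group held both high and low libraries, and the 95% interval ran from -1.53 to 0.74. *Slc25a14*, another relative of the uncoupling proteins, had 0.757, 0.951 and 0.973 in KO libraries, against 0.94, 0.832 and 1.15 in WT libraries, with overlapping groups.

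Among carriers given no substrate class, *Slc25a47* stood apart in KO libraries. This liver-enriched carrier (chromosome 12, 108836046 to 108856815, plus strand) had 1.46, 1.22 and 1.05 in KO libraries, against 0.586, 0.9 and 0.994 in WT libraries. All KO libraries lay above all WT libraries, with KO replicate 3 and WT replicate 3 close together. It averaged 1.24 ± 0.209 in KO libraries and 0.827 ± 0.214 in WT libraries (SD, n = 3 each), a ratio of 1.5. The log2 change was 0.55 (SE 0.21, 95% interval 0.03 to 1.07, limma adjusted p = 0.392), and 0.35 without WT replicate 1. Its unadjusted p stayed under 0.05 without KO replicate 3 or WT replicate 3, but not when any of the other 4 libraries was left out. The mean ratio of 9 hepatocyte markers was lower in every KO library than in any WT library. Of these markers, 3 lay lower in this way, as 10.1% of all genes did. *Apob* had a ratio of 1.26 and *Hnf4a* one of 0.985, both with overlapping groups. The part of hepatocytes in the *Slc25a47* values was not tested.

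*Slc25a35* had 1.16, 0.588 and 0.937 in KO libraries, against 1.37, 0.978 and 1.35 in WT libraries. KO replicate 2 was the lowest, and the log2 change of -0.45 (limma adjusted p = 0.538) was -0.21 without it. Exons of *Rangrf* overlap this gene on the opposite strand. *Slc25a46*, which acts in outer membrane dynamics, had 1.02, 0.95 and 1.19 in KO libraries, against 0.719, 0.859 and 1.12 in WT libraries (limma adjusted p = 0.653). Its log2 change of 0.22 was 0.09 without WT replicate 1, 0.14 without KO replicate 3 and 0.38 without WT replicate 3. *Slc25a48* had 1.04, 0.955 and 0.916 in KO libraries, against 1.10, 1.18 and 0.899 in WT libraries (limma adjusted p = 0.746). The groups overlapped for *Slc25a35*, *Slc25a46* and *Slc25a48*, as they did for *Slc25a45* and *Slc25a53*, whose log2 changes were -0.06 and -0.01.

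**Figure D3:**
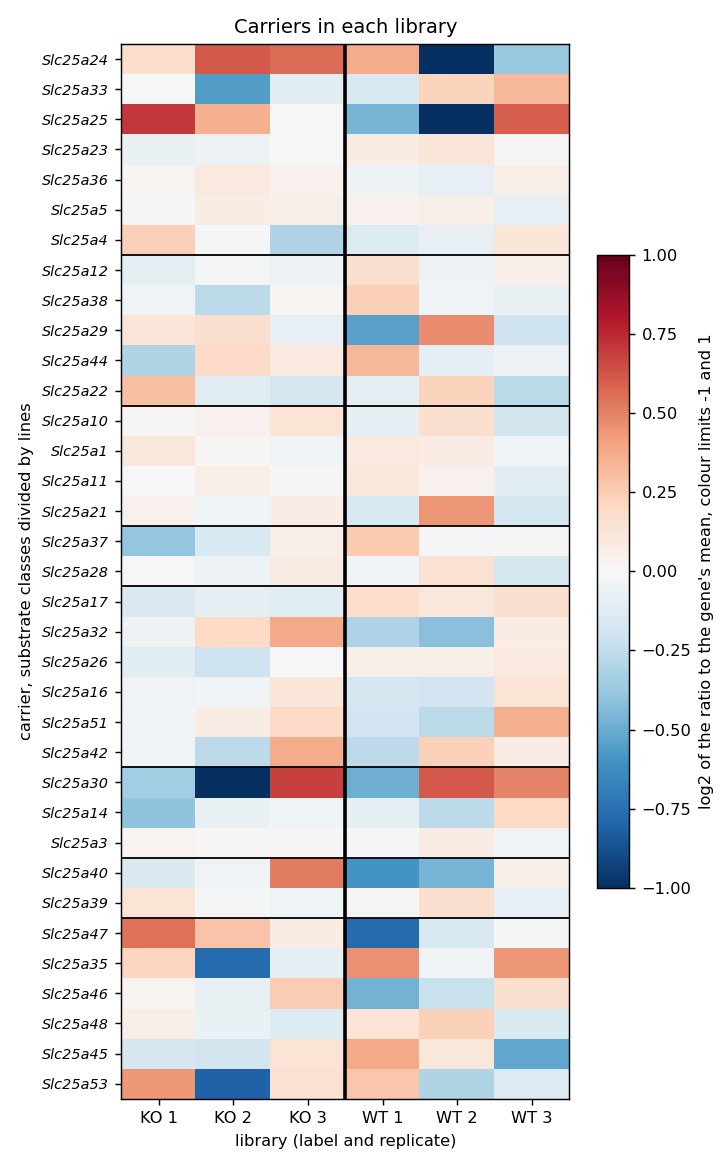
Log2 of the ratio to each gene's mean for the 35 carriers (rows, with substrate classes divided by lines) in the 3 KO and 3 WT libraries (columns), with colours limited to -1 and 1. The darkest cells are *Slc25a24* and *Slc25a25* in WT replicate 2 and *Slc25a30* in KO replicate 2, while *Slc25a3*, *Slc25a5* and *Slc25a1* stay near white.

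Carriers differed among themselves mainly in how far replicates spread. The within-group SD on the log2 scale was under 0.08 for *Slc25a17*, *Slc25a3*, *Slc25a23*, *Slc25a5*, *Slc25a36*, *Slc25a1*, *Slc25a26*, *Slc25a12* and *Slc25a11*. It was 0.674, 0.68 and 0.69 for *Slc25a24*, *Slc25a30* and *Slc25a25*. The median over the carriers was 0.196, against 0.161 over all genes. In 16 of 35 carriers every library lay from 0.8 to 1.2, which was so for 46.7% of all genes.

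Genes that insert the carriers or mark mitochondrial content gave no common direction. The TIM22 pathway threads carriers into the inner membrane, and its 9 tested genes had a median log2 change of 0.01, with 1 lower in KO at an unadjusted p under 0.05. *Timm9*, an intermembrane space chaperone of this route, had 0.915, 0.815 and 0.938 in KO libraries, against 1.01, 1.18 and 1.03 in WT libraries (limma adjusted p = 0.403). *Timm10b*, of the same route, had a ratio of 0.905 with the groups apart (limma adjusted p = 0.569). For 12 outer membrane and matrix genes the median was 0.00, with 3 higher in KO at an unadjusted p under 0.05, as 6.50% of all genes were: the mitochondrial DNA factor *Tfam* (ratio 1.22), the chaperonin *Hspd1* (1.16) and *Cs*, which is also in the citric acid cycle list. Their adjusted p were 0.367, 0.393 and 0.403. The porins *Vdac1* and *Vdac2* had ratios of 0.925 and 0.913 with the groups apart (limma adjusted p = 0.613 and 0.584). The porin *Vdac3* had a ratio of 1 with overlapping groups (limma adjusted p = 0.995). All of these porins were named after their values were seen.

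Of 18 other inner membrane transporters and channels, 2 were higher in KO at an unadjusted p under 0.05 and 0 lower, and the median log2 change was 0.04. *Micu2*, a regulator of the calcium uniporter, had 1.19, 1.17 and 1.15 in KO libraries, against 0.848, 0.836 and 0.89 in WT libraries (ratio 1.37, limma adjusted p = 0.164). *Ucp2*, an uncoupling protein of the same family that carries another name, had 1.34, 1.12 and 1.25 in KO libraries, against 0.851, 0.812 and 0.871 in WT libraries (ratio 1.47, limma adjusted p = 0.17). *Ucp2* is strongly expressed in macrophages, and 5 of 10 macrophage markers were higher in every KO library while the other 5 overlapped between groups. The part of macrophages in its values was not tested. *Abcb10*, a transporter of haem synthesis, had a ratio of 0.824 with the groups apart (limma adjusted p = 0.448).

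Among 13 regulators of mitochondrial biogenesis, 2 were higher and 2 lower in KO at an unadjusted p under 0.05, with a median log2 change of -0.07. *Atf4*, a factor of the integrated stress response, had a ratio of 0.843, the fatty acid receptor *Ppara* one of 1.21 and *Pprc1*, a coactivator related to PGC-1, one of 0.706 (limma adjusted p = 0.358, 0.358 and 0.359). In all of these lists 0 genes passed the adjusted threshold.

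**Figure D4:**
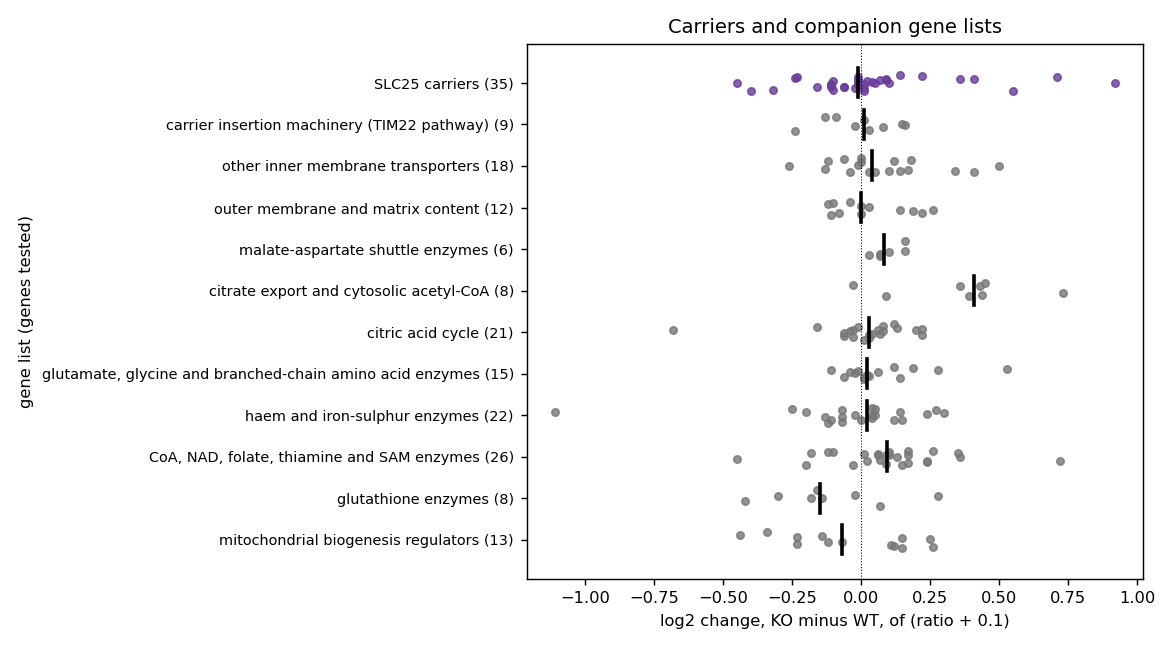
Log2 change, KO minus WT, of each tested gene on the log2(ratio + 0.1) scale, for the carriers and 11 companion lists, with a black bar at the median and the number of genes in brackets. The list of citrate export and cytosolic acetyl-CoA has the highest median, 0.41, and the carriers lie around -0.01.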

How the data were processed

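The deposited table gives, for 12792 genes and 6 libraries, a linear ratio; per the labels, the submitters' processing notes name STAR 2.10, R 4.0.5 and mm10 without a role. No value exceeds 7 and 99 rows sum to 7 within 1e-09, so each ratio was read as expression over the gene's mean of 7 libraries. The sources used here do not give the counter, annotation or scaling, and depth is unknown.

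With R 4.3.3, log2(ratio + 0.1) was fitted by limma 3.58.1 with no mean trend, for the 12578 rows above 0 in at least 3 libraries. P-values were adjusted by Benjamini-Hochberg over all of them. Log2 changes are on this scale, which understates changes of low values. The fit was tested on simulated data with known changes before use. Rows sharing a name were left out of the lists. Of the 37 carrier rows, 1 is not reported here and stays out of the counts over carriers.

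Substrate classes, companion lists and markers were chosen with earlier results of these data known. Values per library are given for the 16 carriers with the smallest p and for carriers in classes of 2 to 4. Of each companion list, up to 3 genes with the smallest p among those with groups apart are named, plus *Akr1d1* and a few genes marked as named after their values were seen. The main fit treated the libraries as unpaired. Deviations from the group means correlated at -0.0207, -0.00198 and 0.089 between same-numbered KO and WT libraries. Positions are from GENCODE M21, where all 36 symbols used were found. The alternatives were other pseudocounts, filters, scaling and variance models, a replicate block, and leaving out each library.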

Additional observations from a re-analysis of the deposited data

How the results depend on the processing

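In all 14 alternatives 0 of 35 carriers passed the adjusted threshold. Of 280 values of single carriers under the 8 alternatives that keep all libraries, 279 kept their direction and their side of the threshold, the exception being *Slc25a53*, at 0.00 with a pseudocount of 0.5. Leaving out 1 library turned the sign of 15 carriers in 29 of 210 values, none of them past the threshold. Over all genes, 2 passed, against 1 with a pseudocount of 0.5, 0 without a pseudocount on rows above 0 in all libraries, 0 with a mean trend, 1 with the replicate block, and 1 to 4 without single libraries. At an unadjusted p under 0.05, carriers higher in KO numbered 1, against 2 with a mean trend, 2 with the replicate block and 0 to 6 without single libraries; those lower numbered 1, against 2 with the replicate block and 1 to 2 without single libraries. Without single libraries the median log2 change ran from -0.05 to 0.11 for cofactor, 0.03 to 0.08 for nucleotide, -0.13 to -0.03 for amino acid, -0.06 to 0.09 for carboxylate and -0.17 to -0.05 for metal carriers. No same-numbered pair correlated above 0.1, with 0.089 for replicate 3, against 0.0817 for KO replicate 2 with WT replicate 1. Such small correlations cannot show whether same-numbered libraries shared a batch. Replicate 3 was highest in both groups for 13.8% of all genes and lowest in both for 16.8%. *Slc25a17* had an unadjusted limma p under 0.05 in all 14 alternatives. *Slc25a47* did not with the block or when replicate 1 or 2 of either group was left out. The higher carrier was *Slc25a24* on leaving out WT replicate 1, *Slc25a29* on leaving out WT replicate 2 and *Slc25a32* on leaving out KO replicate 1; with the block *Slc25a32*, *Slc25a40*, *Slc25a17* and *Slc25a35* had an unadjusted p under 0.05.

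Without single libraries the log2 changes of the carriers that turned sign ran from -0.20 to 0.01 for *Slc25a14*, -0.01 to 0.28 for *Slc25a51*, -0.06 to 0.40 for *Slc25a29*, -0.15 to 0.07 for *Slc25a44*, -0.08 to 0.18 for *Slc25a22*, -0.29 to 0.12 for *Slc25a45*, -0.05 to 0.01 for *Slc25a1*, -0.05 to 0.10 for *Slc25a28*, -0.01 to 0.04 for *Slc25a3*, -0.07 to 0.03 for *Slc25a11*, -0.06 to 0.05 for *Slc25a39*, -0.11 to 0.18 for *Slc25a21*, -0.11 to 0.13 for *Slc25a4*, -0.15 to 0.14 for *Slc25a42* and -0.24 to 0.31 for *Slc25a53*.

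Reads per library are unknown, so the counting error of single carriers cannot be set apart from other spread. Ratios to each gene's mean hide which carriers are abundant.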
